A study of Homo sapiens with 6 samples.

Results

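A set of 8 genes that hold back apoptosis was examined in HCT116 cells after p53 activation: BCL2, BCL2L1, BCL2L2, BCL2L12 and MCL1, which belong to or are named after the BCL2 family, and XIAP, BIRC2 and BIRC6, which encode inhibitor of apoptosis proteins (IAP). The 8 genes were taken by symbol, as a set chosen with earlier results of these data known. Each symbol matched 1 row of the 57905 rows of the count matrix, and the 8 genes were all among the 16565 genes that passed the filter on low counts.

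RNA-seq was performed on HCT116, a colorectal carcinoma line with wild-type p53, in 6 libraries. Nut 0h cells received only DMSO, the drug vehicle, whereas Nut 1h and Nut 10h cells were exposed for 1 and 10 h to 10 µM Nutlin-3a in DMSO, an inhibitor of the binding of p53 to HDM2 (the MDM2 protein). Each condition had 2 libraries, described in the study as biological replicates. All cells are of 1 unmodified line, and in such bulk RNA fewer cells that express a gene and less RNA of that gene per cell cannot be told apart. The libraries held between 26068076 and 35473485 counts, of which 4.99 to 8.44% came from mitochondrial genes, with the lowest share at Nut 0h and the highest at Nut 1h. MDM2 was upregulated at both time points (log2 fold change 2.19 and 3.75), and CDKN1A was upregulated at Nut 10h (3.84), whereas its Nut 1h change of 0.05 did not pass the test (it was 0.69, and passed, with the GC-content offset described further on). The epithelial markers EPCAM, KRT8, KRT18 and CDH1 were expressed in every library, while VIL1, the fifth, did not exceed 10 counts. PTPRC, CD3E, DCN and CDH5, which define leukocytes, fibroblasts and endothelium, stayed at or below 2 counts. Of the other markers of these cell types, the fibroblast gene COL1A1 had 1381 and 1484 counts in the Nut 0h libraries, 807 and 621 in those of Nut 1h and 1322 and 1245 in those of Nut 10h, and the leukocyte gene LYZ had 78 and 21 at Nut 0h and at most 3 in the treated libraries. The highest counts of COL1A2, PDGFRB and VWF were 25, 36 and 23, and the part of such cells in the results was not tested.

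Apoptosis through mitochondria is set off when BAX and BAK1 open the outer mitochondrial membrane. BCL2, BCL-XL (from BCL2L1), BCL-W (from BCL2L2) and MCL1 bind these effectors and the BH3-only proteins that activate them, whereas IAP proteins act on caspases or on ubiquitin signalling downstream. Several BH3-only genes, such as BBC3 and PMAIP1, and BAX itself are known targets of p53.

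At Nut 1h the 3 IAP genes were upregulated together with MCL1, BCL2L2 and BCL2, as were 34.5% of all tested genes. BCL2L1 and BCL2L12 were downregulated, as were 32.3% of all tested genes. BIRC2, BIRC6 and BCL2 did not pass with the GC-content offset. The promoters of the IAP genes are shown with that of BCL2L1, as 250 bases before and 50 bases after the gene start from RefSeq on GRCh38.p14, 5′ to 3′ on the strand of the gene. The table holds 6 of the 8 genes, with no entry for MCL1 or BCL2L2. The windows lie at chrX:123859458-123859757 (XIAP, plus strand), chr11:102346964-102347263 (BIRC2, plus), chr2:32356773-32357072 (BIRC6, plus) and chr20:31723914-31724213 (BCL2L1, minus). Capitals mark matches to the motifs listed after the sequences.
XIAP: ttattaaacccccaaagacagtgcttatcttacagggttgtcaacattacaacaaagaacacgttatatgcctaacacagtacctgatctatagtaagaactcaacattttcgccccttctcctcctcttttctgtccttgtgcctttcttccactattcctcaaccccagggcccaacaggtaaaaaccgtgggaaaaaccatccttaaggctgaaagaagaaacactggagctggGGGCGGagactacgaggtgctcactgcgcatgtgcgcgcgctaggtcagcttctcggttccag
BIRC2: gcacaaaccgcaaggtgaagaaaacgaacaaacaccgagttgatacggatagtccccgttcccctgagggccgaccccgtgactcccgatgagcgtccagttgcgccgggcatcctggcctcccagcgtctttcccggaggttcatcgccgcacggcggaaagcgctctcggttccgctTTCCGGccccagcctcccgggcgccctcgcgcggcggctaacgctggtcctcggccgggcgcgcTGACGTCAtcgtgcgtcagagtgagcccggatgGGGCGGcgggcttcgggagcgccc
BIRC6: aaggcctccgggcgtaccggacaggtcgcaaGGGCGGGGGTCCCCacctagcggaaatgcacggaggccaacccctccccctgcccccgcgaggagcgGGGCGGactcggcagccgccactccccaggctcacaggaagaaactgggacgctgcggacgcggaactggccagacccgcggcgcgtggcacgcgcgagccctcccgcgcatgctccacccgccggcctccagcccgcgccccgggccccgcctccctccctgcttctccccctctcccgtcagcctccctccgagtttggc
BCL2L1: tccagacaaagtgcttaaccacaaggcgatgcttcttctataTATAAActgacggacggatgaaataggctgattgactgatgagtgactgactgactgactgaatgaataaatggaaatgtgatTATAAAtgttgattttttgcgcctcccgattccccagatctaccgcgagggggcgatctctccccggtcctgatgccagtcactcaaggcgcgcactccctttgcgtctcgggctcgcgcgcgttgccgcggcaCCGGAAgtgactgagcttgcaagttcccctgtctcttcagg

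Both strands were searched for the TATA box (TATAAA), the CCAAT box, the cyclic AMP response element (TGACGTCA), the GC box (GGGCGG), the ETS site (CCGGAA), the p53 decamer consensus and the NF-kB consensus. The GC box was found in XIAP and BIRC2 (1 match each) and in BIRC6 (2 matches), and it is held by 45% of all 35116 promoters of this length in the table. The first of the BIRC6 matches overlaps its NF-kB match, a motif held by 5.91% of promoters. BIRC2 also holds the cyclic AMP response element, as 1.85% of promoters do, and it shares the ETS site (17.2%) with BCL2L1. The BCL2L1 window holds the TATA box at positions -208 and -125 relative to the start, a motif found in 11.5% of promoters. The p53 decamer (6.63% of promoters) and the CCAAT box (34.6%) were in none of the 6 windows, and those of BCL2 and BCL2L12 held none of the motifs searched. These matches describe letters, not bound sites. By base composition the BIRC6, BCL2 and BIRC2 windows were GC-rich (75%, 70.7% and 68.7%), above the 58.7% median of all promoters, whereas those of BCL2L12 (55.3%), BCL2L1 (52%) and XIAP (48%) lay under it.

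All 8 genes passed the test at Nut 1h against Nut 0h: 6 were upregulated and 2 downregulated (edgeR's quasi-likelihood test, Benjamini-Hochberg adjusted p of at most 0.05 over the 16565 tested genes). The same test called 66.9% of all tested genes, 34.5% upregulated and 32.3% downregulated. Normalized counts did not overlap between conditions for any of the 8 genes, nor for 84.8% of the genes tested. The median log2 fold change of the 8 genes was 0.63, compared with 0.05 over all tested genes, and 0.18 against -0.03 with the GC-content offset described further on. At Nut 10h against Nut 0h, 1 of the 8 was upregulated, 2 were downregulated and 5 did not pass, with a median difference of 0.12 on the log2 scale, against 0.00017 over all tested genes. The background of that comparison was 29.0% of genes called, 14.1% upregulated and 14.9% downregulated, and 5 of the 8 genes had conditions that did not overlap, against 61.4% of all tested genes. Without Nut 10h replicate 1, 3 of the 8 were upregulated and 2 downregulated, out of 5049 genes called, and without Nut 10h replicate 2 the median of the 8 turned to -0.02. Both comparisons use the same Nut 0h libraries.

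**Figure D1:**
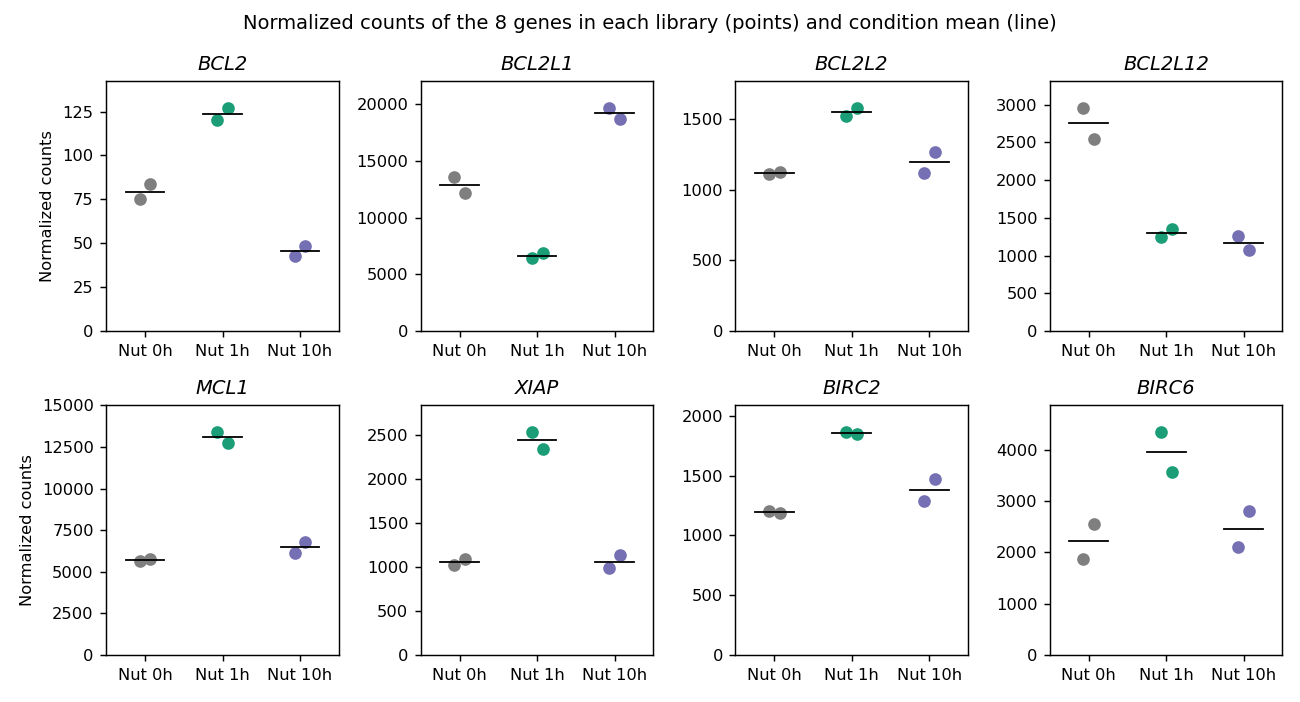
Normalized counts (y axis, from 0) of each of the 8 genes in the 2 libraries of each time point (points), with the condition mean as a line. MCL1, XIAP, BIRC2, BIRC6, BCL2 and BCL2L2 have their highest points at Nut 1h, and BCL2L1 has its highest at Nut 10h and its lowest at Nut 1h. These counts carry no GC-content offset. With it the Nut 1h change of BIRC2 reverses to -0.11 on the log2 scale, and those of BIRC6 (0.24) and BCL2 (0.12) do not pass.

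A gene's change at Nut 1h moved with the base composition of its transcripts. Across the tested genes with a GC content (97.4% of them) Pearson's r between log2 fold change and GC content of the merged exons was -0.70 for Nut 1h and -0.03 for Nut 10h, where genes are not independent replicates. The 6 upregulated members had a GC content of 39.0 to 53.1%, and the 2 downregulated members had 57.8% (BCL2L1) and 58.6% (BCL2L12). With an offset that removes each library's smooth trend on GC content, 5 of the 8 passed at Nut 1h, MCL1, XIAP and BCL2L2 upregulated and BCL2L1 and BCL2L12 downregulated, against 45.7% of all genes tested (20.3% upregulated, 25.3% downregulated). The part that GC content has in these changes was not tested. At Nut 10h the offset changed no call of the 8 genes (1 upregulated, 2 downregulated), where it called 39.5% of all genes, 16.9% upregulated and 22.6% downregulated.

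**Figure D2:**
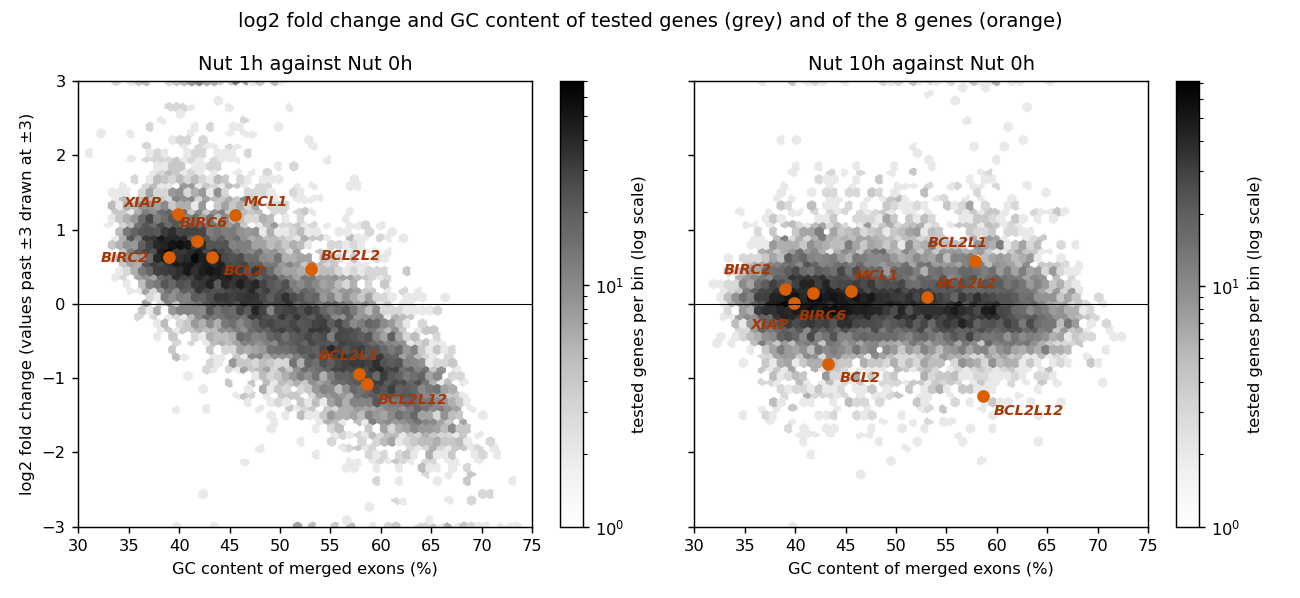
log2 fold change (y axis) against GC content of the merged exons in percent (x axis) for tested genes (grey bins, darker for more genes on a log scale) and the 8 genes (orange), at Nut 1h (left) and Nut 10h (right) against Nut 0h. The grey cloud slopes down at Nut 1h (r = -0.70) and is flat at Nut 10h (r = -0.03).

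MCL1 (chr1:150533371-150552214, minus strand, GRCh37), a short-lived BCL2 protein that holds BAK1 and the BH3-only proteins, had 5675 and 5794 normalized counts at Nut 0h, compared with 13430 and 12765 at Nut 1h. Both Nut 1h libraries were higher than those of Nut 0h. The log2 fold change was 1.19 (SE 0.093, edgeR adjusted p = 2.37e-07), and 0.84 with the GC-content offset (adjusted p = 1.71e-08). Among the 2555 tested genes within 2 percentage points of its GC content of 45.5%, whose median was 0.33, MCL1 lay above 90.3%. At Nut 10h it had 6154 and 6768 normalized counts, both still above the Nut 0h libraries, and this difference of 0.17 on the log2 scale did not pass the test (95% interval -0.03 to 0.37, adjusted p = 0.182). From Nut 1h to Nut 10h it dropped by 1.02, as a log2 difference (adjusted p = 3.65e-07), and by 0.72 with the offset (adjusted p = 3.47e-08).

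BCL2L1 (chr20:30252255-30311792, minus strand), whose main product is BCL-XL, moved the other way. It had 13568 and 12168 normalized counts in the Nut 0h libraries, 6465 and 6870 in those of Nut 1h, and 19684 and 18717 in those of Nut 10h. The 3 conditions were fully apart, with Nut 1h lowest and Nut 10h highest. Against Nut 0h, the Nut 1h change was -0.95 on the log2 scale (SE 0.096, edgeR adjusted p = 1.5e-06) and the Nut 10h change 0.58 (SE 0.095, adjusted p = 0.000393), and the difference between the treated time points was 1.53 (adjusted p = 1.32e-08). Under the GC-content offset the Nut 1h change was -0.27 (adjusted p = 0.00402) and that at Nut 10h 0.55 (adjusted p = 3.3e-06), with a difference of 0.83 between the treated time points (adjusted p = 7.54e-09). The median of genes of like GC content at Nut 1h was -0.71, and 29.3% of those 2071 genes lay lower than BCL2L1.

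Per length, MCL1 lay above BCL2L1 at Nut 1h without the GC-content offset and under it with the offset. The ratio of MCL1 to BCL2L1 levels per kb of merged exons was 0.282 and 0.321 in the Nut 0h libraries, 1.4 and 1.25 in those of Nut 1h, and 0.211 and 0.244 in those of Nut 10h. With each library's GC trend divided out, the ratio was 0.381 and 0.386, then 0.857 and 0.802, then 0.283 and 0.286. In both scalings the Nut 1h libraries had the highest ratio. The trend divided out is each library's departure from the mean of all 6 libraries, so levels compared between genes depend on that reference. The summed level of BCL2, BCL2L1, BCL2L2 and MCL1 was 133 and 123 TMM-scaled CPM per kb at Nut 0h, 122 and 122 in the Nut 1h libraries, and 179 and 176 in those of Nut 10h. Without the offset the sum at Nut 1h lay just under the Nut 0h libraries although its composition differed, with 53.7 and 51.0% from MCL1 in place of 20.8 and 22.9%. At Nut 10h the sum was the highest of the 3 conditions, and MCL1 gave 16.7 and 18.7% of it. With the GC trend divided out, the sum was 119.5 and 115.2 at Nut 0h, 131.5 and 132.9 after 1 h and 154.6 and 160.4 after 10 h, and MCL1 gave 26.1 and 26.2%, 42.2 and 40.6%, and 21.1 and 21.2% of it.

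BCL2L2 (chr14:23767999-23780960, plus strand), which encodes BCL-W, had 1110 and 1127 normalized counts at Nut 0h, compared with 1520 and 1577 at Nut 1h. The conditions did not overlap, and BCL2L2 was upregulated (log2 fold change 0.47, SE 0.099, edgeR adjusted p = 0.000829). It grew to 0.75 with the GC-content offset (adjusted p = 5.84e-07). Genes of its GC content (53.1%) had a median of -0.30, and BCL2L2 lay above 89.1% of those 2060 genes. At Nut 10h its libraries had 1115 and 1267 normalized counts and overlapped those of Nut 0h (log2 difference 0.09, 95% interval -0.12 to 0.30, adjusted p = 0.539). Between the treated time points it fell by 0.38 (adjusted p = 0.00378), a call that was lost without Nut 10h replicate 1 (-0.25, adjusted p = 0.0785). With the GC-content offset this difference was -0.69 (adjusted p = 5.86e-07).

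BCL2 (chr18:60790579-60987361, minus strand), the founding member, was expressed at a low level, with 75.4 and 83.6 normalized counts in the Nut 0h libraries, 120 and 127 in those of Nut 1h, and 42.5 and 48.4 in those of Nut 10h. The 3 conditions did not overlap, and the order was Nut 1h above Nut 0h above Nut 10h. The Nut 1h change on the log2 scale was 0.64 (SE 0.19, edgeR adjusted p = 0.00893) and depended on single libraries and settings: it was 0.56 without Nut 0h replicate 1 (adjusted p = 0.0507), 0.59 without Nut 1h replicate 2 (adjusted p = 0.0574) and 0.12 with the GC-content offset (adjusted p = 0.628). DESeq2 gave 0.59 (adjusted p = 0.138), and an offset on gene length 0.41 (adjusted p = 0.0694). At Nut 10h BCL2 was downregulated (log2 difference -0.80, SE 0.212, adjusted p = 0.011), a change that was -0.85 with the GC-content offset (adjusted p = 0.00317) and did not pass in DESeq2 (-0.82, adjusted p = 0.0665). The drop from Nut 1h to Nut 10h was -1.44 (adjusted p = 2.55e-05), or -0.97 with the GC-content offset (adjusted p = 0.000454).

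BCL2L12 (chr19:50168399-50177173, plus strand), a proline-rich protein with a BH2-like region that has been described as an inhibitor of caspases and of p53, was downregulated at both time points. It had 2959 and 2546 normalized counts in the Nut 0h libraries, 1253 and 1352 in those of Nut 1h, and 1258 and 1082 in those of Nut 10h. All treated libraries lay under those of Nut 0h, and the treated time points overlapped each other. The Nut 1h change was -1.08 on the log2 scale (SE 0.11, edgeR adjusted p = 1.56e-06) and the Nut 10h change -1.23 (SE 0.11, adjusted p = 1.13e-06). The GC-content offset left -0.34 at Nut 1h (adjusted p = 0.000975) and -1.26 at Nut 10h (adjusted p = 4.03e-11). The difference between the treated time points depended on the setting. It was -0.15 in the test (95% interval -0.39 to 0.08, adjusted p = 0.231), -0.36 with the length offset (adjusted p = 0.0051) and -0.92 with the GC-content offset (adjusted p = 5.09e-09). IRF3, an interferon regulatory factor on the opposite strand, shares 25.9% of the BCL2L12 exons. Its normalized counts were 3261 and 2879 without drug, 1599 and 1626 after 1 h, and 2731 and 2328 after 10 h. Reads from the shared exons cannot be assigned to either gene without strand, and a strand setting is not given in the sources used here.

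XIAP (chrX:122993562-123047822, plus strand), which binds and blocks caspases, was upregulated at Nut 1h. It had 1019 and 1089 normalized counts at Nut 0h, compared with 2539 and 2340 at Nut 1h, with both Nut 1h libraries above those of Nut 0h. The log2 fold change was 1.21 (SE 0.103, edgeR adjusted p = 4.2e-07), and 0.51 with the GC-content offset (adjusted p = 1.16e-05). Genes of its GC content (39.9%) had a median of 0.68, and XIAP lay above 88.1% of those 2640 genes. At Nut 10h its 985 and 1133 normalized counts enclosed those of Nut 0h (log2 difference 0.0075, 95% interval -0.22 to 0.23, adjusted p = 0.967). From Nut 1h to Nut 10h it dropped by 1.20, as a log2 difference (adjusted p = 2.2e-07), and by 0.54 under the offset (adjusted p = 3.01e-06).

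BIRC2 (chr11:102217942-102249401, plus strand) encodes cIAP1, a ubiquitin ligase of TNF receptor signalling. It had 1205 and 1190 normalized counts at Nut 0h, compared with 1870 and 1846 at Nut 1h. The libraries of each condition were close together and the conditions apart, with a log2 fold change of 0.63 (SE 0.099, edgeR adjusted p = 6.34e-05) that turned to -0.11 with the GC-content offset (adjusted p = 0.231). Its GC content of 39.0% was the lowest of the 8 genes, and the 2388 genes like it had a median of 0.72, above its own value. At Nut 10h it had 1286 and 1477 normalized counts, above both Nut 0h libraries but with a log2 difference of 0.21 that did not pass the test (95% interval -0.0062 to 0.42, adjusted p = 0.137). Without Nut 10h replicate 1 this difference was 0.31 and passed (adjusted p = 0.0499). Between Nut 1h and Nut 10h it dropped by 0.43, as a log2 difference (adjusted p = 0.0015), and with the GC-content offset that direction too was reversed (0.29, adjusted p = 0.00307).

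BIRC6 (chr2:32582091-32844638, plus strand) encodes BRUCE, also called Apollon, a very large IAP protein with a ubiquitin-conjugating domain, and its replicates spread the most of the 3 IAP genes. It had 1871 and 2557 normalized counts in the Nut 0h libraries, 4360 and 3568 in those of Nut 1h, and 2113 and 2801 in those of Nut 10h. The Nut 1h libraries lay above all others, while Nut 10h overlapped Nut 0h. The Nut 1h change on the log2 scale was 0.84 (SE 0.155, edgeR adjusted p = 0.000273), and 0.24 with the GC-content offset (adjusted p = 0.0658). At Nut 10h the log2 difference was 0.15 (95% interval -0.18 to 0.48, adjusted p = 0.513), and both its call and its direction depended on single libraries. It was 0.34 and passed without Nut 10h replicate 1 (adjusted p = 0.0471), but -0.059 without Nut 0h replicate 1 (adjusted p = 0.847) and -0.054 without Nut 10h replicate 2 (adjusted p = 0.835). From Nut 1h to Nut 10h it fell by 0.69 (adjusted p = 0.00124), and by 0.13 with the GC-content offset (adjusted p = 0.305).

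**Figure D3:**
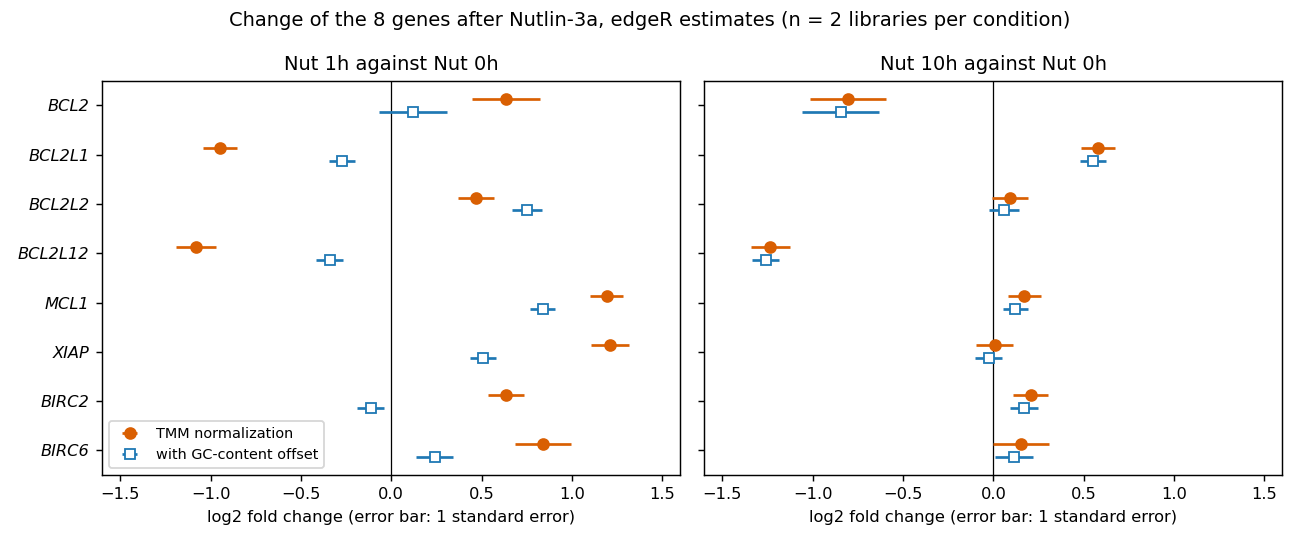
log2 fold change of the 8 genes (x axis, bars of 1 standard error) at Nut 1h (left) and Nut 10h (right) against Nut 0h, from edgeR with TMM normalization (orange circles) and with the GC-content offset (blue squares). The estimates lie close at Nut 10h, whereas at Nut 1h BIRC2 crosses zero (0.63 without and -0.11 with the offset) and BCL2L2 moves up (0.47 and 0.75).

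The contrast of Nut 10h with Nut 1h, which tests directly whether a gene's change differs between the time points, called 7 of the 8 genes: BCL2L1 was higher at Nut 10h, and BCL2, BCL2L2, MCL1, XIAP, BIRC2 and BIRC6 were lower, BIRC2 and BIRC6 only without the GC-content offset. It called 67.9% of all tested genes, 34.2% higher and 33.7% lower. The 7 called genes had conditions that did not overlap, as did 85.0% of all tested genes. With the GC-content offset 2 of the 8 were higher at Nut 10h (BCL2L1 and BIRC2), 5 were lower (BCL2, BCL2L2, BCL2L12, MCL1 and XIAP) and BIRC6 did not pass, against 58.2% of all tested genes called, 29.4% higher and 28.8% lower. Without it the median difference was -0.56 over the 8 genes and -0.02 over all tested genes.

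Compared per length, BCL2L1 was the most abundant of the 8 transcripts at Nut 0h, with 91.1 ± 4.57 CPM (counts scaled to a common library total) per kb of merged exons (SD, n = 2). BCL2L12 (28.9 ± 2.29) and MCL1 (27.4 ± 1.14) followed, and their library values overlapped. With the GC trend divided out MCL1 (30.1 ± 0.138) lay above BCL2L12 (24.4 ± 0.688) with no overlap. That scaling is relative to the mean of all 6 libraries, those of Nut 1h included, so it does not give an order from the Nut 0h libraries alone. BIRC2 (7.88 ± 0.141), BCL2L2 (6.87 ± 0.257), BIRC6 (3.56 ± 0.874) and XIAP (3.29 ± 0.245) came next, of which BIRC6 and XIAP overlapped, and BCL2 was lowest with 0.188 ± 0.0187. With the longest transcript as the length, BCL2L2 came before BIRC2 at Nut 0h. At Nut 1h, without the GC-content offset, the order was MCL1 (65.2 ± 3.72) above BCL2L1 (49.1 ± 1.07), followed by BCL2L12 (14.2 ± 0.459), BIRC2 (12.7 ± 0.386), BCL2L2 (9.90 ± 0.047), XIAP (7.93 ± 0.627), BIRC6 (6.63 ± 1.08) and BCL2 (0.304 ± 0.0052), where no neighbours overlapped. With the GC trend divided out BCL2L1 stayed first at Nut 1h (67.5 ± 0.407), above MCL1 (56.0 ± 2.31), and BCL2L2 came before BIRC2. At Nut 10h BCL2L1 led again, with 137.9 ± 1.17, before MCL1 (31.3 ± 2.95) and BCL2L12 (12.4 ± 0.984), and the lower ranks were those of Nut 0h, with BIRC6 and XIAP again overlapping. With the GC trend divided out BIRC2 (10.8 ± 0.37) came before BCL2L12 (10.3 ± 0.18) at Nut 10h. The summed level of the 3 IAP genes, 14.4 and 15.6 TMM-scaled CPM per kb at Nut 0h, was 27.7 and 25.6 after 1 h and 15.2 and 18.1 after 10 h. With the GC trend divided out these sums were 17.76 and 17.78, then 19.75 and 19.17, then 18.74 and 19.74. This scaling of the levels was chosen after seeing the data.

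**Figure D4:**
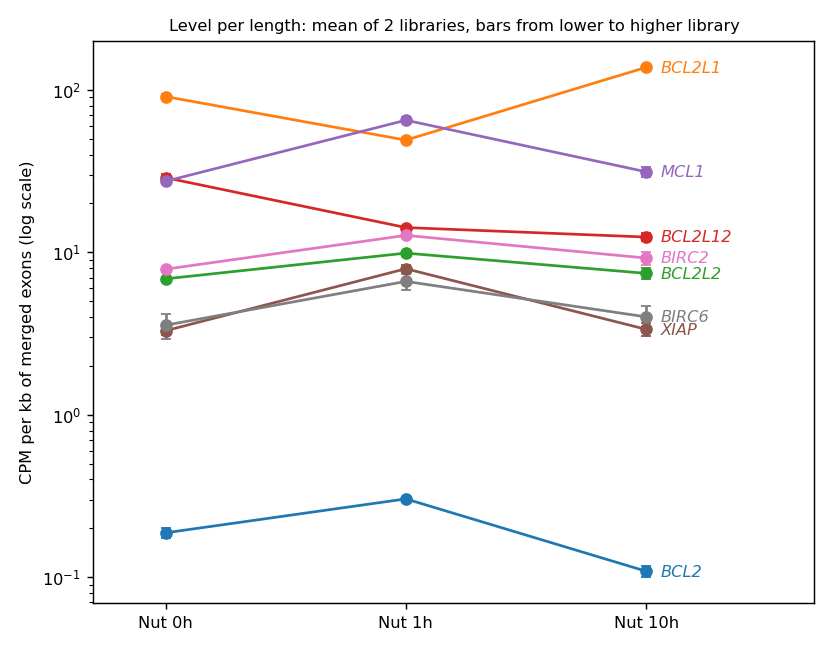
Level per length of the 8 genes (y axis, CPM per kb of merged exons, log scale) in the 3 conditions, as the mean of 2 libraries with bars from the lower to the higher library. MCL1 lies above BCL2L1 at Nut 1h (65.2 and 49.1) and under it at Nut 0h (27.4 and 91.1) and Nut 10h (31.3 and 137.9), in levels without the GC-content offset. With the offset, which is relative to the mean of all 6 libraries, MCL1 lies under BCL2L1 at Nut 1h too (56.0 and 67.5).

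The opposing side of the BCL2 family was measured by 13 pro-apoptotic genes, of which 12 passed the filter (BCL2L14 did not). At Nut 1h 2 of the 12 were upregulated, 8 were downregulated and 2 did not pass, beside 34.5% of all tested genes upregulated and 32.3% downregulated. Their median log2 fold change was -0.72, and -0.13 with the GC-content offset. PMAIP1, the BH3-only protein NOXA that binds MCL1, rose from 1482 and 1404 to 4329 and 3939 normalized counts (1.52, adjusted p = 6.15e-08, and 0.82, adjusted p = 8.66e-08, with the offset), while BOK (-1.63, adjusted p = 2.54e-07) and BAD (-1.50, adjusted p = 2.34e-06) fell. BAD holds 64.7% GC and BOK 65.9%, and with the GC-content offset their changes were -0.21 and -0.21, that of BAD no longer passing (adjusted p = 0.0996). With the offset 4 of the 12 were upregulated, 3 were downregulated and 5 did not pass, against 20.3% and 25.3% of all tested genes. BAX (-0.54 without the offset and 0.38 with it, adjusted p = 0.000422) and BBC3 (-0.97 and 0.29, adjusted p = 0.00702) went from downregulated to upregulated. At Nut 10h 6 were upregulated, 3 were downregulated and 3 did not pass, beside 14.1% and 14.9% of all tested genes. BBC3, the BH3-only protein PUMA, had the largest change, from 1176 and 934 to 4698 and 3891 normalized counts (2.03, adjusted p = 2.97e-08). BAX (1.29, adjusted p = 5.33e-07) and BIK (0.79, adjusted p = 0.000114) rose as well. The median over the 12 genes was 0.14 at Nut 10h.

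**Figure D5:**
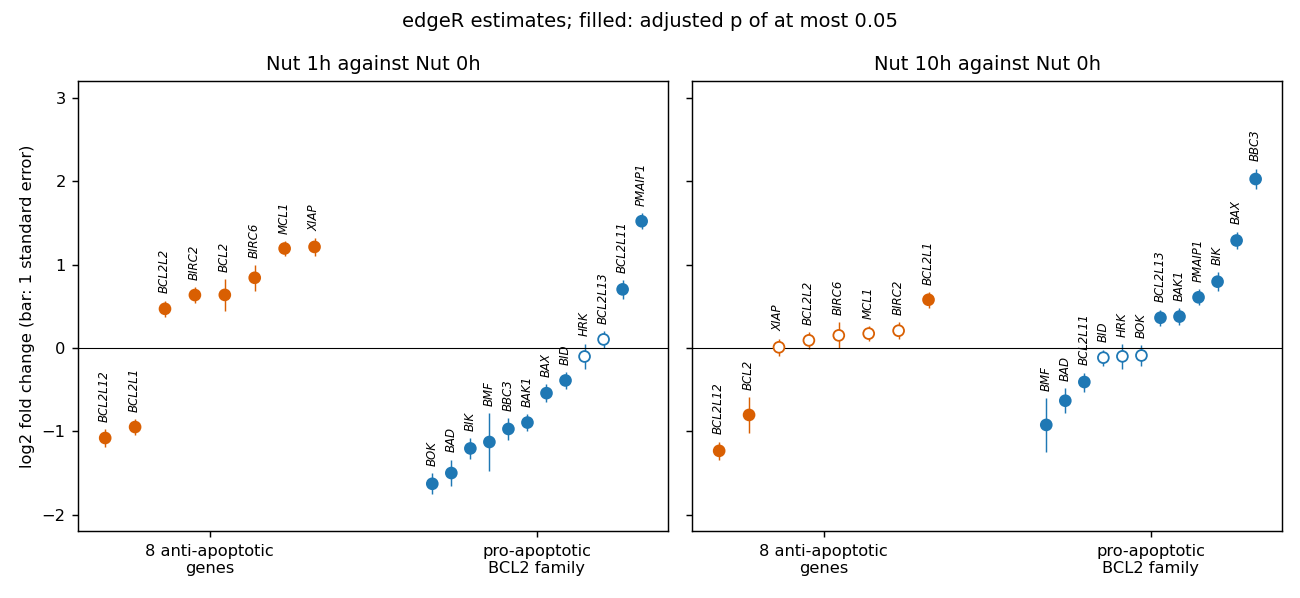
log2 fold change (y axis, bars of 1 standard error) of the 8 anti-apoptotic genes (orange) and the 12 tested pro-apoptotic BCL2 family genes (blue) at Nut 1h and Nut 10h against Nut 0h, ordered by value, without the GC-content offset, with filled points for an adjusted p of at most 0.05. At Nut 1h 6 of 8 orange and 2 of 12 blue points are filled above zero (3 of 8 and 4 of 12 with the offset, against 34.5% of all tested genes without and 20.3% with it), and at Nut 10h 1 of 8 and 6 of 12 are (14.1% of all tested genes).

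Of 7 other anti-apoptotic BCL2 and IAP genes only BIRC3, BIRC5 and NAIP were tested, since BCL2A1, BCL2L10, BIRC7 and BIRC8 failed the filter on low counts. BIRC3, which encodes cIAP2, had 117 and 119 normalized counts in the Nut 0h libraries, 354 and 289 in those of Nut 1h, and 302 and 345 in those of Nut 10h. It was upregulated at both time points (log2 fold change 1.45 and 1.45, edgeR adjusted p = 1.99e-06 and 5.28e-06). The GC-content offset lowered its change at Nut 1h to 0.57 (adjusted p = 0.00132). BIRC5, or survivin, which also serves in chromosome segregation, had 2809 and 2844 normalized counts at Nut 0h, compared with 929 and 1021 at Nut 10h. It dropped by 1.54, as a log2 difference (adjusted p = 2.91e-08). At Nut 1h its difference of 0.11 did not pass (adjusted p = 0.317), whereas with the offset it was 0.18 and passed (adjusted p = 0.0435). NAIP was upregulated at Nut 1h (1.53, adjusted p = 0.00581) from 9.66 and 9.39 normalized counts, a change that did not pass with the offset (0.95, adjusted p = 0.079).

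Proteins that bind IAPs or act with them formed a list of 8 genes, of which XAF1 failed the filter. At Nut 1h 2 of the 7 tested were upregulated, 4 were downregulated and 1 did not pass, beside 34.5% and 32.3% of all tested genes. With the offset 2 were upregulated, 2 downregulated and 3 not called (20.3% and 25.3% of all tested genes), and the median turned from -0.49 to 0.14. HTRA2, a mitochondrial protease that displaces XIAP from caspases, dropped by 1.21, as a log2 difference (adjusted p = 1.34e-06), and RIPK1 rose by 0.55 (adjusted p = 0.000217). With the offset these were -0.85 (adjusted p = 7.1e-07) and 0.35 (adjusted p = 0.00145). TRAF2, the partner of cIAP1, was lower at Nut 1h (-0.50, adjusted p = 0.00311), with a reversed sign under the GC-content offset (0.48, adjusted p = 0.000206), and its call was lost without Nut 1h replicate 1 (-0.33, adjusted p = 0.0969). At Nut 10h CFLAR, which encodes the caspase 8 inhibitor c-FLIP, was upregulated (0.93, adjusted p = 1.09e-05), TRAF2 was downregulated (-0.76, adjusted p = 0.000413) and 5 did not pass, where 14.1% of all tested genes were upregulated and 14.9% downregulated. With the offset HTRA2 was downregulated too at Nut 10h (-0.33, adjusted p = 0.00544). The list then had 1 upregulated, 2 downregulated and 4 not called, against 16.9% and 22.6% of all tested genes.

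CASP8, the initiator caspase of death receptors, was upregulated at Nut 1h (0.69 on the log2 scale, adjusted p = 0.000103), with a changed sign under the GC-content offset (-0.05, adjusted p = 0.653). At Nut 10h APAF1, the scaffold of the apoptosome, rose by 1.27 (adjusted p = 5.31e-06), from 575 and 655 to 1283 and 1688 normalized counts. CASP8 passed at Nut 10h (0.37, adjusted p = 0.0247), but in 5 of the 6 fits that left out 1 library it did not (0.22 to 0.38), the exception being the fit without Nut 10h replicate 1. The 5 genes that add or remove ubiquitin on MCL1 were all upregulated at Nut 1h without the offset, as were 34.5% of all tested genes, led by USP9X (0.73), FBXW7 (0.60) and MARCH5 (0.50). With the offset USP9X did not pass (0.03, adjusted p = 0.773), FBXW7 (-0.07) and MARCH5 (-0.26) changed sign, and 1 of the 5 was upregulated, 1 downregulated and 3 not called, against 20.3% and 25.3% of all tested genes. At Nut 10h FBXW7 was the 1 of the 5 that passed without the offset, with 0.72 (adjusted p = 7.85e-05), beside 14.1% of all tested genes upregulated. With the offset MARCH5 passed too (0.20, adjusted p = 0.0354), beside 16.9%.

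Exons shared with other annotated genes limit what some counts can be assigned to. BCL2, BIRC2 and XIAP share no exon with another gene in the annotation. The antisense transcript ABALON, which is not in the count matrix, covers 41.3% of the BCL2L1 exons. BCL2L2 shares 16.8% of its exons with the read-through gene BCL2L2-PABPN1, which had 5 to 22 counts, and 6.51% with PPP1R3E on the opposite strand (59 to 137 counts). On the opposing side GPR137 shares 23.65% of the BAD exons and LOXL3 27.5% of those of HTRA2, both on the opposite strand. For MCL1 the partners covered 5.27% and 0.691% of its exons, and for BIRC6 0.264%.

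The genes whose pattern was nearest to each member, by Euclidean distance between centred log2(CPM + 1) values over the 6 libraries and among tested genes averaging at least 100 normalized counts, are given as a description. MCL1 lay nearest to RRP15 (distance 0.107) and HNRNPH2 (0.111), and XIAP to ZNF566 (0.0738) and ZNF268 (0.0888). For BCL2L1 they were PLA2G6 (0.055) and PLEKHM1 (0.115), and for BCL2L12 GPRIN1 (0.141) and EFNA2 (0.155). BIRC2 was nearest to AASDH (0.0462) and CAPN7 (0.0615), and BIRC6 to ZFHX4 (0.11). BCL2 was nearest to EXOSC8 (0.0463) and NUPL1 (0.071). The nearest genes of BCL2L2, MTM1 (0.0518) and SUCLG2 (0.0562), have a GC content of 40.1% and 39.7%, against 53.1% for BCL2L2 itself. RRP15 (35.2%) also lay apart from MCL1 (45.5%), whereas ZNF566 (38.9%) was close to XIAP (39.9%). These distances carry no GC-content offset.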

How the data were processed

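HCT116 RNA-seq libraries of Nut 0h, Nut 1h and Nut 10h (2 each) were grouped by the sample labels. Per the study's methods and the submitters' processing notes, the authors trimmed reads with Trim Galore 0.6.6, aligned them to GRCh37.p13 with STAR 2.7.0f and counted them per gene with featureCounts (Subread 2.0.0). The deposited matrix holds these raw counts, 26068076 to 35473485 per library. Strand and multimapping settings are not given in the sources used here. The deposited comparison table (fold changes and p-values from the authors' DESeq2) was used only to pair gene IDs with symbols.

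The members and lists were chosen with earlier results of these data known. Counts were filtered (filterByExpr), TMM-normalized and tested with edgeR 4.0.16 (quasi-likelihood, limma 3.58.1, R 4.3.3) with all 6 libraries in 1 fit, condition as the only term and 3 residual degrees of freedom, and p-values were adjusted by Benjamini-Hochberg over 16565 genes. P-values measure only the spread between these libraries, with each gene's variance moderated over all tested genes (10.7 prior degrees of freedom). Normalized counts are counts per TMM-scaled library size at the mean depth. CPM, computed here from the deposited counts, was divided by merged-exon length. Replicates differed beyond sampling noise (chi-square per degree of freedom 5.13 to 16.7). GC content, lengths and overlaps came from GENCODE v44 lifted to GRCh37. The GC-content offset is a loess trend (span 0.4) of each gene's deviation from its mean log2 CPM over the 6 libraries. Levels with the GC trend divided out use the same trend, so a GC effect common to all 6 libraries stays in them.

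Named beside the members were, for each list and each comparison with Nut 0h, up to 3 called genes with the largest change, non-overlapping conditions and a mean of at least 100 normalized counts, list genes that failed the filter, and the treatment checks MDM2 and CDKN1A. BIRC5, BAX and BBC3 at Nut 1h, NAIP and IRF3 were named after their values were seen. Some genes that the rule names are not reported here. Markers were 5 epithelial, 4 leukocyte, 4 fibroblast and 3 endothelial genes, of which PECAM1 was not matched. On simulated counts for Nut 1h against Nut 0h (15971 genes), edgeR recovered 94 of 100 genes changed by 1 on the log2 scale and 100 of 100 changed by 2, and called 12 unchanged genes. With a simulated GC trend (16026 genes) 7396 unchanged genes were called without the offset and 8 with it. The simulated trend was linear in the same GC content that the offset uses, so this does not test the offset on the real libraries. Alternatives were RLE size factors, DESeq2 1.42.0, no low-count filter, a replicate block, GC-content and length offsets, only the conditions compared, and leaving out each library.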

Additional observations from a re-analysis of the deposited data

Results flagged for a closer look

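The change of 7 of the 8 genes differed between the treated time points in the contrast of Nut 10h with Nut 1h (edgeR's quasi-likelihood test, adjusted p of at most 0.05), as did 67.9% of all tested genes. The log2 difference of Nut 10h from Nut 1h was 1.53 for BCL2L1, which was lower than Nut 0h at Nut 1h and higher at Nut 10h. It was -1.44 for BCL2, which was lower than Nut 0h at Nut 10h (not passing in DESeq2) and higher at Nut 1h, a rise that did not pass with the GC-content or length offset, in DESeq2 or without Nut 0h replicate 1 or Nut 1h replicate 2. XIAP (-1.20), MCL1 (-1.02), BIRC6 (-0.69), BIRC2 (-0.43) and BCL2L2 (-0.38) were upregulated at Nut 1h without the GC-content offset and did not pass against Nut 0h after 10 h. With the offset the Nut 1h change of BIRC2 was reversed (-0.11, adjusted p = 0.231) and that of BIRC6 was not called (0.24, adjusted p = 0.0658). Without Nut 10h replicate 1, BIRC2 (adjusted p = 0.0499) and BIRC6 (adjusted p = 0.0471) passed at Nut 10h against Nut 0h, and the BCL2L2 difference between the treated time points did not pass (-0.25, adjusted p = 0.0785). Under the GC-content offset the differences of BCL2L1 (0.83), BCL2 (-0.97), MCL1 (-0.72), BCL2L2 (-0.69) and XIAP (-0.54) passed, BCL2L12 gained a call (-0.92, adjusted p = 5.09e-09), BIRC6 no longer passed (-0.13, adjusted p = 0.305) and BIRC2 was reversed (0.29, adjusted p = 0.00307). The part of GC content in these differences was not tested.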

How the results depend on the processing

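For the 8 genes, 134 values with 1 library left out and 188 under other settings kept their direction and their side of the threshold. A further 5 and 7, not called in either fit, changed sign, 3 and 11 lost the call, 2 and 4 gained it, and in 0 and 6 a called direction was reversed. Leaving out 1 library gave 8791 to 11438 genes called for Nut 1h, 3371 to 5049 for Nut 10h and 9014 to 11509 between the treated time points, with 7 to 8, 3 to 5 and 6 to 7 of the 8 genes called. The median log2 difference of the 8 genes was then 0.59 to 0.66, -0.02 to 0.21 and -0.67 to -0.38. At Nut 1h their median was 0.61 with RLE size factors, 0.59 with DESeq2, 0.59 with no low-count filter, 0.53 with the length offset, 0.60 with only the 2 conditions compared, 0.18 with the GC-content offset, 0.19 with that offset and the replicate block, and 0.31 with GC content from the longest transcript, an alternative chosen after seeing the data. The GC-content offset left 5 of the 8 called, out of 7565 genes called, and with the replicate block also 5, out of 7313. With the longest transcript 6 of the 8 were called, out of 7515 genes called, BIRC6 passing (0.32, adjusted p = 0.0239). Under the GC-content offset, with the replicate block, and with the longest transcript, in this order, BIRC2 turned to -0.11, -0.11 and -0.14 in the first comparison and to 0.29, 0.29 and 0.31 between the treated time points, TRAF2 to 0.48, 0.47 and 0.44, and MARCH5 to -0.26, -0.26 and -0.24. CASP8 turned to -0.051 and -0.053 and FBXW7 to -0.073 and -0.072 under the first 2. With the GC-content offset BAX and BBC3 also turned at Nut 1h, to 0.38 and 0.29. The cause was not tested. Whether replicate numbers mark shared cultures or days is not stated in the sources used here. Same-numbered deviations correlated at -0.30 (Nut 0h with Nut 1h), 0.44 (Nut 0h with Nut 10h) and -0.27 (Nut 1h with Nut 10h). The replicate block gave 10979, 4893 and 11189 genes called and 8, 3 and 7 of the 8 genes. DESeq2 called 7, 2 and 7 of them, out of 9312, 3777 and 9523 genes called. Depth limits BCL2 most, with 44 to 120 counts per library.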
